A study of Mus musculus with 12 samples.

Results

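The thrombospondins are a family of 5 secreted proteins, encoded in the mouse by Thbs1, Thbs2, Thbs3, Thbs4 and Comp, and they were followed here by gene name across mouse hearts under pressure load. A probe set of their own was found for 4 of the 5 members among 26989 genes measured. These were TC0200001729.mm.1 for Thbs1, TC0300000752.mm.1 for Thbs3, TC1300002426.mm.1 for Thbs4 and TC0800000747.mm.1 for Comp, each the only probe set of its gene. Thbs2 was not analysed here. Heart RNA came from 12 male C57BL/6J mice aged 10 weeks, each hybridised to 1 Clariom D array, with 3 biological replicates in each of 4 groups. Wild-type and ADAM12 knockout mice had either a sham operation or transverse aortic constriction (TAC), which narrows the aortic arch and loads the left ventricle, and hearts were taken 2 weeks later. How the Adam12 allele was made, and in which cells ADAM12, a membrane-anchored metalloprotease, is lost, is not given in the sources used here. Values are log2 signals as the authors deposited them, so a difference of 1 is a doubling of signal. Levels are means ± SD over 3 hearts, and differences are given ± the standard error of limma. That error rests on a variance per gene shared by all 4 groups.

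Thrombospondins are calcium-binding glycoproteins of the extracellular matrix that link matrix proteins, proteases and growth factors to receptors on the cell surface. Thbs1 and Thbs2 form trimers, restrain vessel growth through CD36, and Thbs1 can release TGF-beta from its latent complex. Thbs3, Thbs4 and Comp form pentamers. Thbs4 is known as a gene of the loaded heart and of tendon, and inside the cell its product takes part in the endoplasmic reticulum stress response through ATF6. Comp, the cartilage oligomeric matrix protein, helps collagen fibrils assemble in cartilage and tendon.

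Of the 4 measured members, Thbs4 had the largest TAC response and Thbs3 the smallest. The 250 bases before the start of these genes are shown to set both promoters side by side, 5′ to 3′ on the gene's own strand, from RefSeq on GRCm38.p6. Thbs4 lies at chr13:92794819-92795068 on the minus strand and Thbs3 at chr3:89214930-89215179 on the plus strand. The table of promoters used here held 2 of the 4 measured members, and Thbs1 and Comp were not among them. Capitals mark matches, on either strand, to the GC box GGGCGG, to CCAAT, or to CATAAA, a variant of the TATA box chosen after the sequence was read.
Thbs4: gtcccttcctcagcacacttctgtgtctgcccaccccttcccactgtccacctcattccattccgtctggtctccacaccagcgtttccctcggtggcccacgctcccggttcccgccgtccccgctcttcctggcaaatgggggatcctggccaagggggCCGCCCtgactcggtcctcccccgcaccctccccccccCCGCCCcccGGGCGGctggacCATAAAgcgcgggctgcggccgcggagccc
Thbs3: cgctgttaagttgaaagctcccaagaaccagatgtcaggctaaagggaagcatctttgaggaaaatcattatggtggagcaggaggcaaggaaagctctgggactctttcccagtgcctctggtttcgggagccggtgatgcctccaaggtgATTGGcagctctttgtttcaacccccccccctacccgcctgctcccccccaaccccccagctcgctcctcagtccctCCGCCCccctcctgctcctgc
The Thbs4 window held 3 GC boxes, 1 on the plus and 2 on the minus strand, and 1 CATAAA on the plus strand. The Thbs3 window held 1 GC box and 1 CCAAT, both on the minus strand. No match overlapped another, and TATAAA was found in neither window. Among 32851 promoter windows of 250 bases, 32.7% held a GC box, 33.8% a CCAAT, 10.8% a CATAAA and 12.4% a TATAAA. The Thbs4 window was 70.8% G or C and the Thbs3 window 58.8%, where the median window was 52.4%. These matches describe the letters only.

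Signal differed little from array to array: with controls left out, the median probe set read 4.93 to 5.10, and background probe sets had medians of 2.96 to 3.17. Cardiomyocyte markers averaged 17.65 to 17.96 on every array, so all 12 samples carried heart muscle RNA. The targeted gene was read on a dim probe set that carries another symbol as well. Adam12 read 4.35 ± 0.04 after sham and 4.33 ± 0.08 after TAC in the knockout, against 4.54 ± 0.07 and 4.70 ± 0.12 in the wild type (SD, n = 3), and each knockout array lay below each wild type array. Which part of Adam12 the probes cover was not known here. Among wild type TAC hearts, replicates 2 and 3 stood far apart for the members, and results that rest on them are given with and without them.

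Thbs4, the pentameric thrombospondin of loaded muscle and tendon, rose most. In wild type sham hearts its signal was 8.43, 8.72 and 8.06 in replicates 1 to 3, and in knockout sham hearts 8.67, 8.07 and 8.37. After TAC it was 10.25, 12.52 and 8.96 in wild type hearts and 12.69, 12.96 and 13.25 in knockout hearts. The sham groups overlapped, every wild type TAC heart lay above every wild type sham heart, and the 3 knockout TAC hearts were the highest of all 12. In the knockout TAC raised Thbs4 by 4.60 ± 0.65, or 24.2-fold (limma adjusted p = 0.00101), which ranked 2 among 26989 genes by size of rise. In wild type hearts the difference was 2.18 ± 0.65, or 4.52-fold, and it did not pass (adjusted p = 0.192). Averaged over genotypes it was 3.39 ± 0.46 (adjusted p = 0.000738), ranking 3.

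Comp, the cartilage matrix protein of the same subgroup, came next by size of rise in the knockout. Its signal in replicates 1 to 3 was 8.46, 8.42 and 7.77 in wild type sham hearts and 8.32, 7.83 and 8.10 in knockout sham hearts. In TAC hearts it read 9.45, 11.15 and 7.33 in the wild type and 12.13, 12.25 and 11.94 in the knockout. One wild type TAC heart thus lay below all 6 sham hearts, while the knockout TAC hearts were tightly grouped and above all others. TAC raised Comp in the knockout by 4.02 ± 0.68, or 16.2-fold (adjusted p = 0.00267), ranking 6 by size of rise. The wild type difference was 1.09 ± 0.68 at adjusted p = 0.56, with overlapping groups. The average over genotypes was 2.55 ± 0.48 (adjusted p = 0.00457).

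Thbs1, the trimeric thrombospondin that platelets store and that can activate TGF-beta, read 9.93, 9.53 and 9.25 in wild type sham hearts and 10.03, 9.44 and 10.04 in knockout sham hearts. In wild type TAC hearts it was 9.92, 11.75 and 9.27, and in knockout TAC hearts 12.85, 13.19 and 12.49. In the wild type only replicate 2 lay above the sham hearts, whereas all knockout TAC hearts did. The TAC difference was 3.01 ± 0.49 in the knockout, or 8.04-fold (adjusted p = 0.00214), and 0.74 ± 0.49 in the wild type (adjusted p = 0.584). Averaged over genotypes Thbs1 rose by 1.88 ± 0.35 (adjusted p = 0.0041).

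Thbs3, a pentameric member that has been less studied in the heart, was read on a dim probe set and moved least. Its signal was 5.63, 5.65 and 5.68 in wild type sham hearts and 5.55, 5.67 and 5.55 in knockout sham hearts. After TAC it was 5.95, 6.03 and 5.67 in the wild type and 6.66, 6.43 and 6.13 in the knockout. Wild type TAC replicate 3 again fell within the sham range, and the knockout TAC hearts were again the highest. TAC raised Thbs3 in the knockout by 0.82 ± 0.13, or 1.76-fold (adjusted p = 0.00174). Its wild type difference of 0.23 ± 0.13 did not pass (adjusted p = 0.491), and the average over genotypes was 0.53 ± 0.09 (adjusted p = 0.00278).

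**Figure D1:**
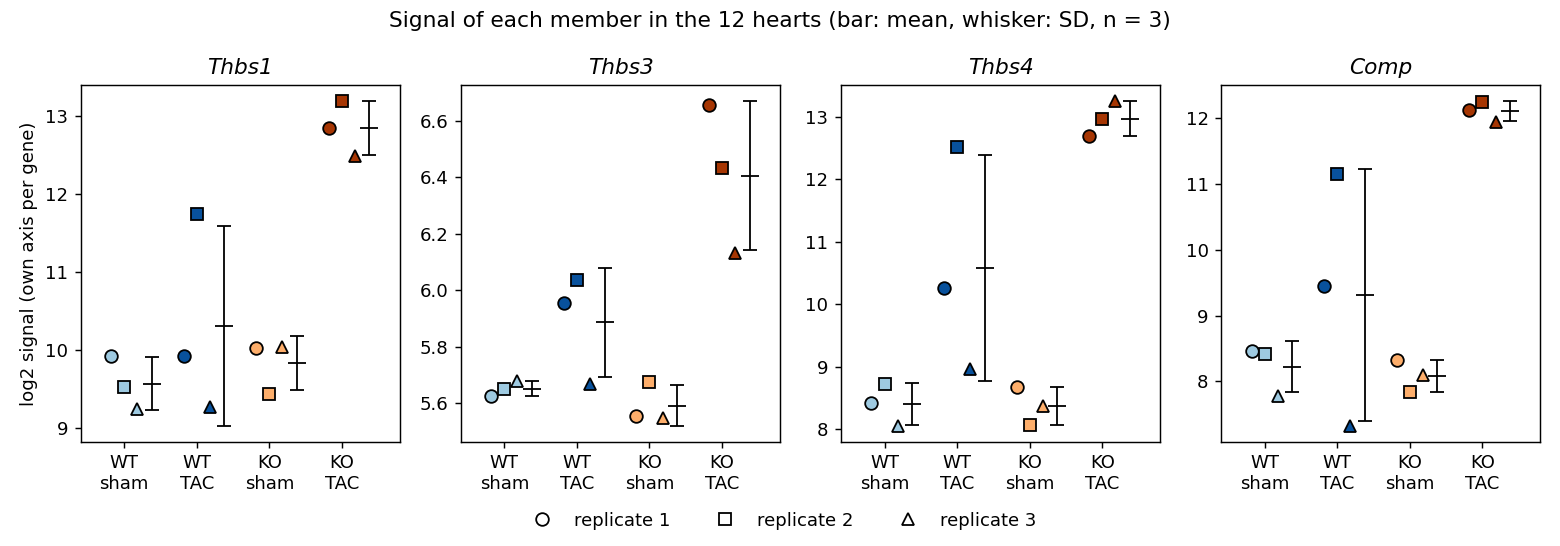
Log2 signal of Thbs1, Thbs3, Thbs4 and Comp in each of the 12 hearts, by group (WT wild type, KO ADAM12 knockout), with the mean (bar) and SD (whisker) of 3 hearts beside the points; each gene has its own axis. The knockout TAC hearts are the highest for each gene, and the wild type TAC hearts spread widely, from 8.96 to 12.52 for Thbs4.

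All 4 measured members rose with TAC in the knockout, where 12.8% of all genes were called, 7.08% of all genes as higher and 5.68% as lower. All 4 also rose in the average over genotypes, where 13.6% were called, 7.49% as higher and 6.12% as lower. In the wild type 0 of 4 passed by limma, where 0.178% of all genes were called, 0.0667% as higher and 0.111% as lower, and 1 of the 4, Thbs4, had an unadjusted p under 0.05, as had 3330 of 26989 genes. Sham and TAC groups did not overlap for 4 of 4 members in the knockout, which held for 32.3% of all genes and, with TAC higher, for 15.4%. In the wild type they did not overlap for 1 of 4, which held for 16.1% of all genes and, with TAC higher, for 9.03%. The median difference over all genes was -0.03 in the knockout and 0.02 in the wild type. These are bulk samples, so more cells of a type that makes a thrombospondin and more RNA per cell cannot be told apart.

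The knockout rises did not rest on one heart. With any single array left out, Thbs4 rose by 4.45 to 4.75, Comp by 3.89 to 4.14, Thbs1 by 2.81 to 3.18 and Thbs3 by 0.69 to 0.95. Over every alternative tried for this comparison the adjusted p of limma stayed at or below 0.0143 for each of them.

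**Figure D2:**
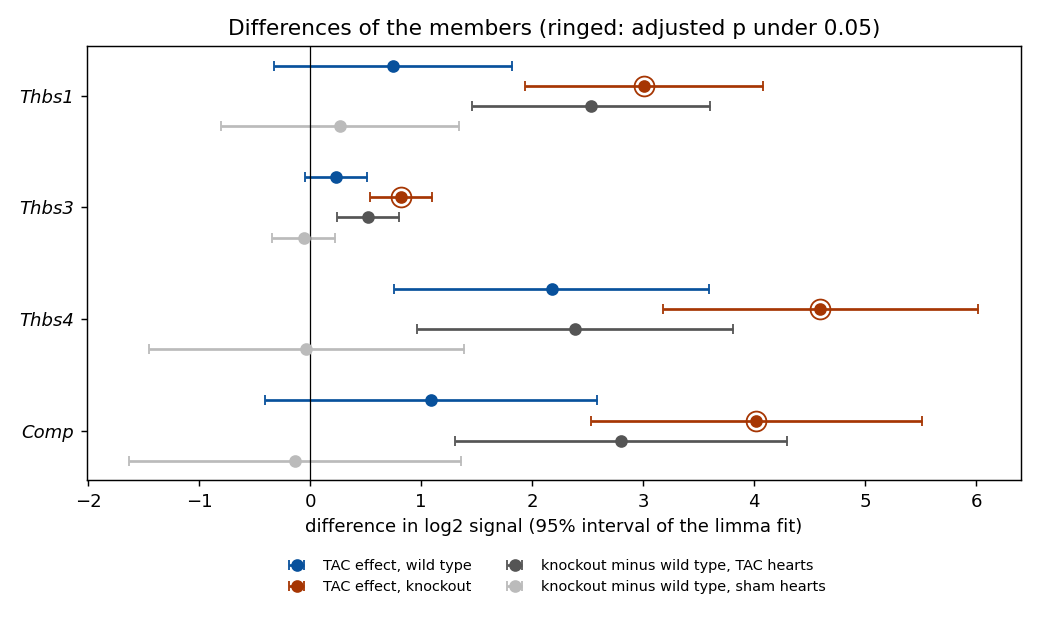
Differences in log2 signal with 95% intervals from the limma fit, for TAC against sham in each genotype and for knockout against wild type after each surgery; rings mark an adjusted p under 0.05. For each of the 4 genes the TAC effect in the knockout is ringed and the sham difference between genotypes spans 0.

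The wild type TAC hearts kept one order across the family, with replicate 2 highest, replicate 1 between and replicate 3 lowest for each of the 4 members. To set the members on one scale, each heart's value was placed between the wild type sham mean (0%) and the knockout TAC mean (100%). Replicate 2 stood at 90.2% for Thbs4, 75.4% for Comp, 66.5% for Thbs1 and 50.8% for Thbs3. Replicate 1 stood at 40.6%, 31.6%, 10.7% and 40.0% for the same genes. Replicate 3 was at 12.3% for Thbs4 and 2.32% for Thbs3, and below the wild type sham mean for Comp (-22.9%) and Thbs1 (-9.04%). Thus a heart that had nearly reached the knockout TAC level of Thbs4 and one that had hardly left the sham level carried the same label.

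**Figure D3:**
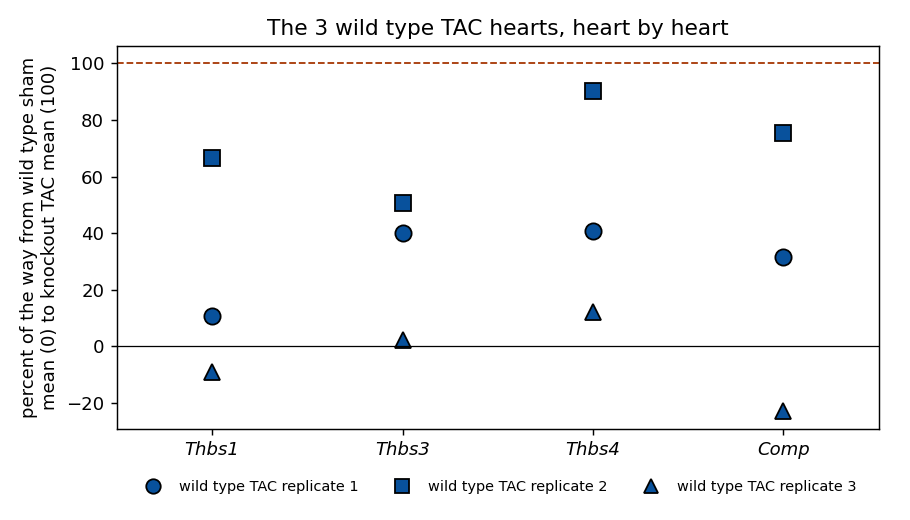
Position of each wild type TAC heart between the wild type sham mean (0) and the knockout TAC mean (100, dashed line), for each member. Replicate 2 (squares) is highest and replicate 3 (triangles) lowest for all 4 genes, from 90.2% to -22.9%.

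The SD over wild type TAC hearts was 1.91 for Comp, 1.80 for Thbs4, 1.28 for Thbs1 and 0.19 for Thbs3. Of all genes, 99.99%, 99.98%, 99.95% and 68.9% had a smaller SD in that group. In knockout TAC hearts the same SDs were 0.15, 0.28, 0.35 and 0.26, so Comp, the most variable member in loaded wild type hearts, was the least variable in loaded knockout hearts. The wild type comparison moved with these hearts. Without wild type TAC replicate 3, Thbs4 rose by 2.98 ± 0.51 (adjusted p = 0.0317) and Comp by 2.08 ± 0.40 (adjusted p = 0.043), while Thbs1 differed by 1.26 ± 0.44 (adjusted p = 0.241). Without wild type TAC replicate 2, Thbs4 differed by 1.21 ± 0.34 (adjusted p = 0.327), Comp by 0.17 ± 0.47 (adjusted p = 0.944) and Thbs1 by 0.03 ± 0.28 (adjusted p = 0.987).

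Whether hearts lacking ADAM12 carry more thrombospondin transcript under load was asked of the TAC hearts directly. Every knockout TAC heart lay above every wild type TAC heart for 4 of 4 members, which held in that direction for 7.91% of all genes and in either direction for 19.2%. The difference was 2.80 ± 0.68 for Comp, or 6.95-fold, 2.53 ± 0.49 for Thbs1 (5.78-fold), 2.39 ± 0.65 for Thbs4 (5.22-fold) and 0.52 ± 0.13 for Thbs3 (1.44-fold). Comp ranked 2, Thbs1 3 and Thbs4 7 among 26989 genes by size of difference. By limma 0 of the 4 passed after adjustment over all genes, where 0.0111% of genes were called, and all 4 had an unadjusted p under 0.05, as had 3928 of 26989 genes. The adjusted p was 0.0592 for Thbs1, 0.0816 for Comp, 0.0839 for Thbs3 and 0.112 for Thbs4. The variance shared by the groups is smaller than the spread of wild type TAC hearts for Thbs1, Thbs4 and Comp. For these genes, standard errors and p-values of limma can thus be too small in every comparison with wild type TAC hearts. With only the arrays compared in the fit, 0 of 26989 genes passed.

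The gap nearest to overlap was in Thbs3 and Thbs4. For Thbs3 the lowest knockout TAC heart read 6.13 and the highest wild type TAC heart 6.03, and for Thbs4 these were 12.69 and 12.52. For Thbs1 they were 12.49 and 11.75, and for Comp 11.94 and 11.15. Without wild type TAC replicate 2 the difference passed for Thbs1 (3.25 ± 0.28, adjusted p = 0.000519), Thbs4 (3.36 ± 0.34, adjusted p = 0.00118) and Comp (3.72 ± 0.47, adjusted p = 0.00352). Without wild type TAC replicate 3 it was 2.01 ± 0.44 for Thbs1 (adjusted p = 0.194), 1.58 ± 0.51 for Thbs4 (adjusted p = 0.278) and 1.81 ± 0.40 for Comp (adjusted p = 0.194). Thbs3 passed without knockout TAC replicate 3, at 0.66 ± 0.12 (adjusted p = 0.0472). The dependence on single hearts therefore ran in both directions.

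In sham hearts the genotypes did not separate. Knockout minus wild type was 0.27 ± 0.49 for Thbs1, -0.06 ± 0.13 for Thbs3, -0.04 ± 0.65 for Thbs4 and -0.13 ± 0.68 for Comp. The groups overlapped for 4 of 4 members, where 12.3% of all genes had groups that did not, and no member or other gene passed by limma (0% called, with 1493 genes at an unadjusted p under 0.05). The 95% intervals reached from -0.81 to 1.34 for Thbs1, -0.34 to 0.22 for Thbs3, -1.46 to 1.38 for Thbs4 and -1.63 to 1.36 for Comp. These intervals use a variance shared by all 4 groups, which the wide spread of wild type TAC hearts enlarges. Sham SDs alone were 0.39 and 0.24 for Comp and 0.33 and 0.30 for Thbs4, wild type first. Sham differences within those bounds cannot be separated by this fit.

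The TAC response of the knockout minus that of the wild type was 2.93 ± 0.96 for Comp, 2.42 ± 0.92 for Thbs4, 2.26 ± 0.69 for Thbs1 and 0.58 ± 0.18 for Thbs3. Unadjusted p-values of limma ran from 0.00724 for Thbs1 to 0.0224 for Thbs4. After adjustment 0 of 4 passed, with adjusted p from 0.279 to 0.366, and 0% of all genes were called, with 2962 genes at an unadjusted p under 0.05. Without wild type TAC replicate 2 the difference passed for Thbs1 (2.98 ± 0.38, adjusted p = 0.0105), Thbs4 (3.39 ± 0.46, adjusted p = 0.0135) and Comp (3.85 ± 0.63, adjusted p = 0.0318). Over all genes 151 of 26989 passed there. Without wild type TAC replicate 3 the difference was 1.74 for Thbs1, 1.61 for Thbs4 and 1.94 for Comp, and 0 of 26989 genes passed. This comparison uses the same hearts as the TAC comparisons and adds no separate samples.

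For each member, then, the sham groups had the lowest means and did not differ beyond their spread, and knockout TAC hearts had the highest. Wild type TAC means lay between, but those hearts overlapped with sham hearts except for Thbs4. No member passed for TAC in the wild type with all arrays in the fit, except Thbs4 with array weights. Without wild type TAC replicate 2 that difference was 0.17 for Comp and 0.03 for Thbs1. Without wild type TAC replicate 3 it was 2.08 for Comp and 1.26 for Thbs1, and Thbs4 and Comp passed.

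The genes whose course was most like a member's were found by distance. Each value was taken as its difference from the gene's wild type sham mean, and the root mean square distance over 12 arrays was computed for the 3 members with an averaged TAC difference over 1. Nearest to Thbs4 were Cilp, a matrix protein of cartilage and scar, at 0.21 and Postn, the periostin of activated fibroblasts, at 0.39, followed by Fn1, Comp, Meox1 and Ltbp2 at 0.59 to 0.73. In the knockout Cilp rose by 4.71 ± 0.67 and Postn by 4.57 ± 0.45, close in size to Thbs4. Nearest to Comp were Ltbp2, named for the family of latent TGF-beta binding proteins, at 0.42 and Col1a1, a chain of type I collagen, at 0.47. Next came Fn1, Col3a1, Col1a2 and Col12a1 at 0.50 to 0.52. Nearest to Thbs1 were Frzb, a secreted WNT inhibitor, at 0.34, Col12a1 at 0.35, the TGF-beta responsive Ccn2 at 0.36, Ddah1 at 0.38, and Dio2 and Col1a1 at 0.42, so Col1a1 and Col12a1 were near both Comp and Thbs1. In the knockout Frzb rose by 2.95 ± 0.43 and Ccn2 by 3.15 ± 0.40. The distance weighs size as well as shape, so genes with rises of other sizes are not found by it.

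Among matrix proteins that bind thrombospondins, 11 of 18 rose and 0 fell with TAC in the knockout, where 7.08% of all genes rose, with a median difference of 1.07 against -0.03 over all genes. With dim genes left out of the fit, 10 of the 10 that remained rose, where 4064 of 13494 genes were called in either direction. Fibronectin (Fn1) rose by 4.07 ± 0.46, Col3a1 by 3.81 ± 0.38, Col1a1 by 3.39 ± 0.42, Col1a2 by 3.37 ± 0.39 and Col5a1 by 1.21 ± 0.15. In wild type hearts 0 of 18 passed while 18 of 18 differences were positive, with a median of 0.29, and 4 passed without wild type TAC replicate 3 or with array weights. Between the TAC hearts of the genotypes 0 of 18 passed, with Fn1 at 2.39 ± 0.46 and Col3a1 at 2.21 ± 0.38 (adjusted p = 0.0592 each), and 10 passed without wild type TAC replicate 2 and 3 without knockout TAC replicate 3. With dim genes left out of the fit 8 of the 10 matrix ligands that remained passed. Over all genes 774 of 26989 passed in this comparison without wild type TAC replicate 2 and 152 without knockout TAC replicate 3. With dim genes left out 616 of 13494 did. For TAC in the wild type 264 of 26989 passed without wild type TAC replicate 3, 352 with array weights and 211 of 13494 without dim genes. These counts apply to the lists below as well.

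Receptors changed in both directions. Of 15 measured receptors and cell surface partners 9 rose and 2 fell in the knockout, with a median of 0.49. Of all genes 7.08% rose and 5.68% fell there. The integrin chains Itga6, Itgav, Itgb1 and Itga4 rose by 0.78 ± 0.13, 0.76 ± 0.10, 0.54 ± 0.08 and 0.49 ± 0.08. Lrp1, the endocytic receptor that clears thrombospondins, rose by 1.37 ± 0.22, and the receptors that rose also held Itgam (1.05 ± 0.23) and Itgb2 (0.67 ± 0.12), integrin chains of leukocytes; these 3 were named after their values were seen. Cd36, the receptor through which Thbs1 restrains vessel growth and also a fatty acid transporter of heart muscle, fell by 0.28 ± 0.08 (adjusted p = 0.0429). That call was lost without any 1 of the 6 knockout arrays or the 3 wild type sham arrays, with adjusted p from 0.052 to 0.149. The other gene that fell was Cacna2d1, a calcium channel subunit bound by thrombospondins, at -0.40 ± 0.09 (adjusted p = 0.0148), named after its value was seen. Neither call held when the first or the third knockout sham heart or the second knockout TAC heart was left out, and 1 of the 2 held without any other single knockout heart or any single wild type sham heart. Neither held when only the arrays compared were fitted, and 1 did with all probe sets tested, with quantile normalization or with arrays centred on the median. Cd47, the receptor for the carboxy-terminal end of thrombospondins, differed by 0.23 ± 0.08 and did not pass (adjusted p = 0.0951). In wild type hearts 0 of 15 receptors passed, or 1 with array weights, with a median of 0.09. Between the TAC hearts of the genotypes 0 of 15 passed. There 5 passed without wild type TAC replicate 2, where 774 of 26989 genes did. Without dim genes 4 of the 14 that remained passed, where 616 of 13494 genes did.

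Of 11 measured genes of TGF-beta supply and response, the growth factor that Thbs1 can activate, 9 rose and 1 fell in the knockout. Their median was 1.05, and of all genes 7.08% rose and 5.68% fell. The ligand Tgfb1 rose by 0.97 ± 0.12, the receptors Tgfbr2 and Tgfbr1 by 1.17 ± 0.14 and 1.05 ± 0.12, and the response gene Skil by 1.05 ± 0.14. Ltbp2, which binds matrix, rose by 3.73 ± 0.41. The gene that fell was Tgfbr3, a co-receptor, at -0.81 ± 0.14, named after its value was seen. In wild type hearts 0 of 11 passed, with a median of 0.68, while 4 passed without wild type TAC replicate 3 and 1 with array weights or without dim genes. Between the TAC hearts of the genotypes 0 of 11 passed, with Tgfb1 at 0.66 ± 0.12 (adjusted p = 0.0592), while 9 passed without wild type TAC replicate 2, 7 without dim genes, and 3 without knockout TAC replicate 3.

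The endoplasmic reticulum stress response, in which Thbs4 takes part, was followed through 18 measured genes. Of these, 2 rose and 2 fell in the knockout, with a median of 0.12, where 7.08% of all genes rose and 5.68% fell. Atf6 itself differed by -0.08 ± 0.08 (adjusted p = 0.636) and its target Hspa5, the chaperone BiP, by -0.12 ± 0.15 (adjusted p = 0.708). Herpud1, a factor of protein degradation at the reticulum, fell by 1.36 ± 0.26 (adjusted p = 0.00543). Atf4 rose by 0.46 ± 0.12 (adjusted p = 0.0292) and Canx, a lectin chaperone, fell by 0.24 ± 0.07 (adjusted p = 0.0382). The other gene that rose was Pdia3, a disulfide isomerase, at 0.61 ± 0.13, named after its value was seen. The count of rises was 1 when the first or the second heart of either knockout group was left out. The count of falls was 1 without any single knockout sham heart, without knockout TAC replicate 2 or 3, and without replicate 2 of either wild type group or the first wild type sham heart. With all probe sets tested 1 rose and 1 fell, and 1 fell with quantile normalization, centred arrays or only the arrays compared. In wild type hearts 0 of 18 passed and the median was -0.27.

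Among 10 measured proteases that cut thrombospondins or are cleared with them, 5 rose and 1 fell in the knockout. Of all genes 7.08% rose and 5.68% fell there. Mmp2, a gelatinase taken up with Thbs2, rose by 2.79 ± 0.44 and its activator Mmp14 by 2.33 ± 0.35. Adamts12 and Adamts7, both among the proteases able to cut Comp, went in opposite directions. Adamts12 rose by 0.59 ± 0.11 (adjusted p = 0.00611) and Adamts7 fell by 0.57 ± 0.09 (adjusted p = 0.00212). Adamts4, which was dim at 4.60 in knockout sham hearts, rose by 0.75 ± 0.12. The fifth gene, Mmp19, rose by 0.74 ± 0.12 and was named after its value was seen. In wild type hearts 0 of 10 passed, and 1 rose and 1 fell without wild type TAC replicate 3 or with array weights, while 1 of the 5 that remained fell without dim genes. Between the TAC hearts of the genotypes 0 of 10 passed. There 5 passed without wild type TAC replicate 2, 3 of 5 without dim genes, and 1 without knockout TAC replicate 3. Of 8 measured vessel growth genes 2 rose and 1 fell in the knockout, with a median of 0.12, beside the same shares of all genes. Hif1a, the oxygen-sensing factor, rose by 1.00 ± 0.15, Vegfc by 0.48 ± 0.13, and Angpt1, which steadies vessels, fell by 1.39 ± 0.34. The count of rises was 1 without any 1 of the knockout arrays, where Vegfc did not pass, and Angpt1 did not pass without the second knockout sham heart or without knockout TAC replicate 2 or 3. The count of rises was also 1 with all probe sets tested or centred arrays, and that of falls 0 with only the arrays compared.

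**Figure D4:**
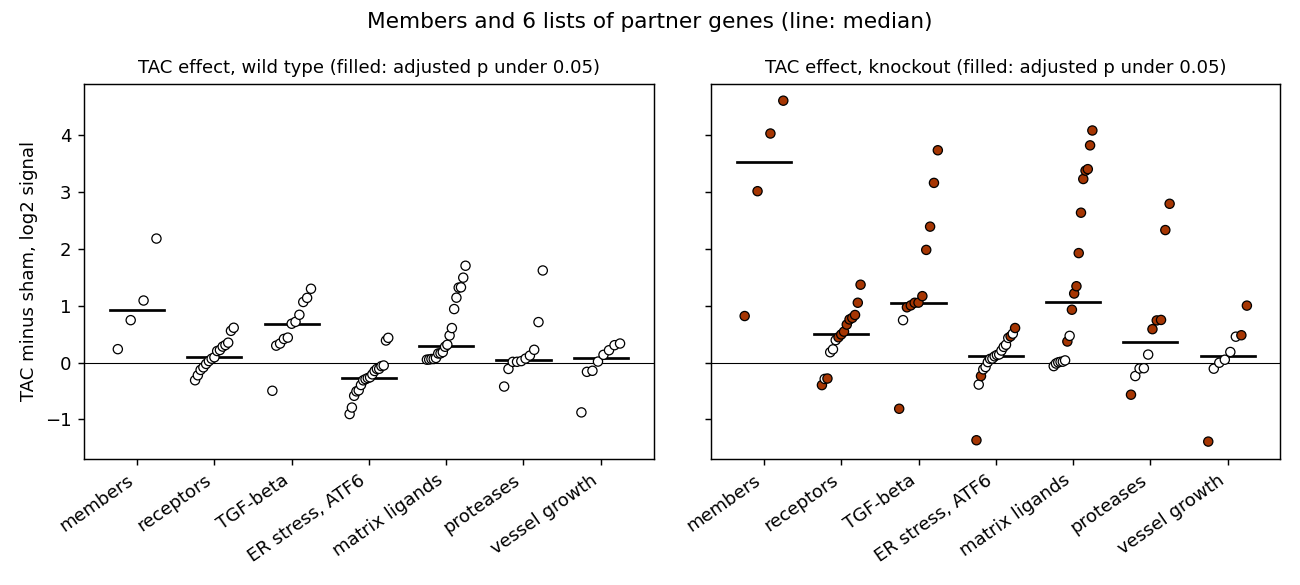
TAC minus sham in log2 signal for the 4 members and for each measured gene of 6 lists of partner genes, in wild type (left) and knockout hearts (right); lines are medians and filled points have an adjusted p under 0.05. In the knockout the matrix ligands reach 4.07 with Fn1, while the endoplasmic reticulum stress genes centre on 0.12.

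Markers of cells that can make thrombospondins were read on the same arrays. Of 6 measured fibroblast markers 4 rose in the knockout, where 7.08% of all genes rose. These were Meox1, Lum (2.12 ± 0.30), Dpt (0.63 ± 0.15) and Tcf21 (0.45 ± 0.13). Gsn went the other way without passing, at -0.37. The count was 2 when the first or the third knockout sham heart or knockout TAC replicate 1 or 2 was left out. Meox1, at 3.24 ± 0.42, was also among the genes nearest to Thbs4. The mean of the list was 12.10 to 12.31 over wild type and 12.10 to 12.29 over knockout sham arrays, and 12.19 to 13.16 over wild type and 13.16 to 13.43 over knockout TAC arrays. Wild type TAC replicate 3 had the lowest of the TAC values, within the sham range, and replicate 2 the highest of the wild type, the order that the members had. Of 9 measured tendon and cartilage markers 3 rose in the knockout, Acan (1.34 ± 0.16), Sox9 (0.87 ± 0.17) and Col2a1 (0.37 ± 0.10). Acan and Col2a1, also matrix ligands above, were dim, at 4.60 and 5.24 in knockout sham hearts. Of the 9 differences 8 were positive, and Chad went the other way without passing, at -0.79. The count of rises was 5 without wild type TAC replicate 2 or 3 or with array weights. The mean of this list was 6.39 in wild type TAC replicate 3 and 7.73 in replicate 2, against 6.62 to 7.09 in wild type sham and 7.49 to 7.74 in knockout TAC hearts. The part of fibroblasts and of tendon or cartilage cells in the thrombospondin differences was not tested.

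Markers of the other cell types were read in the same way, beside the 7.08% of all genes that rose and the 5.68% that fell in the knockout. Of 5 measured platelet markers 0 rose in the knockout (1 did without knockout TAC replicate 1), with array means from 5.52 to 5.87 in all groups. Gp6, Itga2b, Ppbp and Gp9 read only 4.37 to 5.64 in knockout sham hearts, so the list mean says little about platelets. The platelet chemokines Pf4 and Ppbp differed by 0.56 ± 0.22 (adjusted p = 0.138) and 0.19 ± 0.18 (adjusted p = 0.589). All 5 measured macrophage markers rose in the knockout, from Ccr2 (2.24 ± 0.29), Lyz2 (1.21 ± 0.20) and Itgam to Cd68 (0.96 ± 0.16) and Mrc1 (0.91 ± 0.19), with array means of 8.58 to 8.97 after sham and 9.70 to 10.57 after TAC. In wild type TAC hearts the macrophage means were 9.35 to 9.53, with Ccr2 from 5.98 to 6.98 and Itgam from 7.14 to 7.76. Of 7 endothelial markers 2 rose, Pecam1 (0.47 ± 0.09) and Emcn (0.47 ± 0.14). That count was 1 without any wild type sham or knockout sham heart, wild type TAC replicate 2, or knockout TAC replicate 2 or 3, but 3 when replicate 1 of either TAC group was left out. It was also 1 with all probe sets tested, centred arrays or only the arrays compared. Of 5 smooth muscle markers 0 rose, though 5 of 5 differences were positive. Their means in wild type TAC replicates 1 to 3 were 9.96, 10.43 and 9.78, also in the order of the members. Endothelial and macrophage means were highest in replicate 1 among those hearts. Cardiomyocyte markers fell for 3 of 6, Tnni3 by 0.58 ± 0.08, Ryr2 by 0.48 ± 0.08 and Pln by 0.30 ± 0.08. The markers in these lists were named after their values were seen, and their part in the thrombospondin differences was not tested. Atrial markers ranged from 10.31 to 14.08 over the arrays without following the groups, and 0 of 5 passed in the knockout, or 1 without the third wild type or the second knockout sham heart, without dim genes, with array weights, or with the replicate number as a block. Lymphocyte markers gave 0 of 5, or 1 without knockout TAC replicate 3, but were dim, with array means of 4.42 to 4.65. The mesothelial list (0 of 2) and the red cell list (0 of 1) held too few measured genes to describe.

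**Figure D5:**
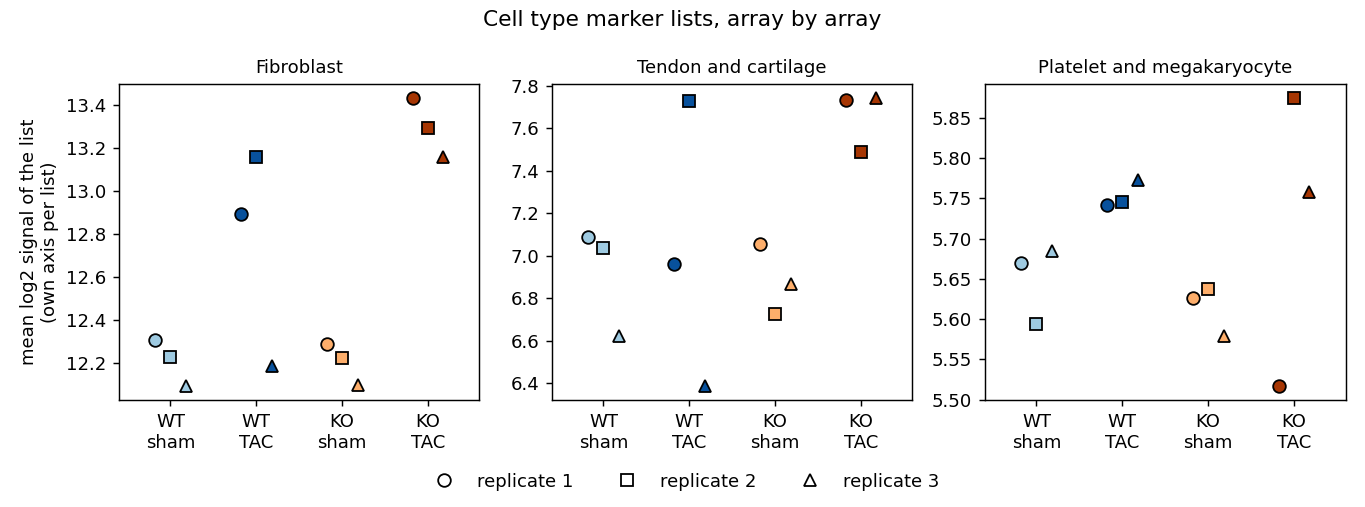
Mean log2 signal of the fibroblast, tendon and cartilage, and platelet marker lists on each array, by group (WT wild type, KO ADAM12 knockout), with its own axis for each list. Fibroblast means of wild type TAC hearts run from 12.19 to 13.16 with replicate 2 highest. Platelet means stay between 5.52 and 5.87, from markers that mostly gave low signals.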

How the data were processed

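Total RNA (250 ng per heart) was labelled with biotin for Clariom D arrays, per the labels' protocols. The deposited values are log2 signals of 65527 probe sets made with Affymetrix Expression Console, per the submitters' processing notes; its version, normalization and summarization are not given in the sources used here, and the log2 scale was read from the values. Control probe sets (6732) were left out. Each gene was read on its brightest probe set with exactly 1 symbol, 757 symbols were updated by gene identifier, and 26989 genes were tested.

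The test was limma 3.58.1 (R 4.3.3) with 1 mean per group over 12 arrays, moderated variances at the tool's default (3.29 degrees of freedom from the prior and 8 from the arrays), 2-sided, with Benjamini-Hochberg adjustment over all genes and a threshold of 0.05 in 6 comparisons. It was tested on simulated data in which each gene had the same SD in every group, so the unequal spread of the members was not covered. The number of arrays limits precision. Members and lists (6 of partner genes, 11 of cell markers) were chosen with earlier results of these data known. The members and Adam12 are always named, with up to 4 genes per partner list by smallest p in the averaged TAC comparison, 9 genes with a fixed role and the 6 nearest genes per member; others were named after their values were seen.

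Replicate numbers of the labels were checked for pairing. Deviations from group means of same-numbered hearts correlated from -0.07 to 0.25 over 12 pairs, and over 0.1 in each pair for knockout sham and TAC hearts alone (0.25, 0.14 and 0.17), where the block changed no call of a member. In the other pairs the correlations ran from -0.07 to 0.21. What a shared replicate number stands for is not given in the sources used here. Alternatives covered probe sets, normalization, dim genes, variance prior, weights, arrays fitted, the block and single arrays left out.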

Additional observations from a re-analysis of the deposited data

How the results depend on the processing

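The number of members called of 4 stayed within 1.5 times its value for TAC in the knockout (4), TAC averaged over genotypes (4) and genotype after sham (0) under every alternative run. For TAC in the wild type it was 0, 1 with array weights (Thbs4, 2.87 ± 0.60, adjusted p = 0.0467) and 0 to 2 without single arrays. For the genotypes compared after TAC it was 0, 3 without dim genes (Thbs1, Thbs3 and Comp) and 0 to 3 without single arrays. For the difference between TAC responses it was 0, and 0 to 3 without single arrays. With the replicate number as a block, 2 members passed for knockout against wild type after TAC (Thbs1 at adjusted p = 0.0332 and Thbs3 at adjusted p = 0.0497), and the block changed no other call of a member. In that comparison the block raised the calls over all genes from 3 to 593 of 26989. It also raised the calls from 0 to 9 of 18 matrix ligands, 6 of 11 TGF-beta genes, 3 of 15 receptors, 3 of 10 proteases, 2 of 5 macrophage markers and 1 each of the fibroblast and tendon lists. For TAC in the wild type it raised them from 0 to 2 TGF-beta genes and 1 each of the matrix, stress, protease, fibroblast and macrophage lists, and from 48 to 266 over all 26989 genes. Why these settings moved the calls was not tested, beyond the fewer genes tested without dim genes.

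The difference of Thbs4 between sham genotypes reversed without single arrays, within -0.21 to 0.12. Among other named genes, reversed differences that were not called were those of Adamts12 in the wild type (-0.014 with centred arrays, -0.089 to 0.12 without single arrays), Hspa5 in the knockout (-0.30 to 0.045 without single arrays), and, between genotypes after TAC, Hspa5 (-0.095 to 0.25), Atf6 (-0.026 to 0.094) and Vegfc (-0.046 to 0.22). Over all genes, calls ran from 0 to 352 for TAC in the wild type (48 as reported), 0 to 774 for knockout against wild type after TAC (3), 0 to 151 for the difference between responses (0), 0 to 1 after sham (0), 2098 to 4438 in the knockout (3444) and 2754 to 4511 in the average (3673). No scaling moved the median of all genes by over 0.1.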
